A study of Mus musculus with 2 samples.

Results

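Somatostatin (Sst), 4 of its receptors (Sstr1, Sstr2, Sstr3 and Sstr4) and 3 other neuropeptide genes (Npy, Penk and Cck) were followed across the cell types of the newborn mouse cerebellum. These 8 genes are rows of a matrix of 32285 genes, and each had at least 1 unique molecular identifier (UMI, a tag that marks 1 captured transcript) in both libraries. They were chosen by symbol, with their UMIs in these 2 libraries already known, so the difference between the libraries is given as a description with no test. Nuclei came from cerebella collected at postnatal day 1. The control library was made from Cre-negative littermates, labelled Tox3f/f in one field and Tox3f/f or Tox3f/+ in another. The second library was made from Nestin-cre;Tox3f/f mice (cKO, a conditional knockout), in which Nestin-Cre acts in neural precursors and their progeny, so that neurons and most glia carry the deletion. Each library pooled 12 cerebella, and there was 1 library per genotype, so no difference below has a replicate check. All intervals are exact 95% intervals, and they cover counting error only.

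Neuropeptides are cut from larger precursors, packed into dense core vesicles and released to act on receptors coupled to G proteins. Somatostatin receptors couple to inhibitory G proteins, which lower cyclic AMP and open potassium channels. In the mature cerebellum somatostatin is known from Golgi and Purkinje cells, and in the newborn rodent the external granular layer, where granule neuron progenitors (GNPs) divide, is known to bind it.

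Sst lies on the minus strand of chromosome 16 (ENSMUSG00000004366, 23889573 to 23890958, GRCm38) and has 2 exons. Its last 14 codons before the stop encode the short form of the hormone, and they are shown because the transcript counted here is the one that carries them. They lie in the second exon at chr16:23889732-23889773 (minus strand, GRCm38), written from 5′ to 3′ with the 2 cysteine codons that form the disulfide bridge in capitals.
Sst last 14 codons: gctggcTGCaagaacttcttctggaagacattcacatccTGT
The promoter of Sst is the textbook site of the cyclic AMP response element, the 8 bases TGACGTCA, which read the same on both strands. Windows of 250 bases before to 50 bases after the start were at hand from RefSeq (GRCm38.p6) for 6 of the 8 genes, and the element occurred in those of Sst and Sstr2 but in no window of Sstr3, Sstr4, Npy or Cck. It occurred in 588 of all 32851 windows (1.79%). The 30 bases around it are printed 5′ to 3′ with the element in capitals, at chr16:23890874-23890903 (minus strand) for Sst and chr11:113619258-113619287 (plus strand) for Sstr2.
Sst: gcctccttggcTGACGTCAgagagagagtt
Sstr2: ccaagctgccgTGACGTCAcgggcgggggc
The element began 48 bases before the RefSeq start of Sst and 58 bases before that of Sstr2. The longer GENCODE model of Sst begins further upstream and takes this stretch into its first exon. A match of letters is a description and shows no binding.

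After the filters, 4667 control nuclei with 20493455 UMIs and 6555 nuclei of the cKO-labelled library with 30169066 UMIs remained. Tox3 itself was not lower in the cKO-labelled library (2127 and 3571 UMIs, 104 and 118 UMIs per 1000000, ratio 1.14, interval 1.08 to 1.2), and counts per gene do not show whether the deleted part was read, so the label was not checked by it. Atoh1, a transcription factor gene of GNPs that is not a member, had 42 and 3 UMIs (2.05 and 0.0994 CPM, ratio 0.0485, interval 0.00962 to 0.152). The libraries shared 9 barcodes. Nuclei were grouped into 24 clusters without the peptide genes, and clusters were named from markers, with the ending "-like". Clusters 1 and 5 held low-depth nuclei, stayed unnamed and were mostly of 1 library each: cluster 1 held 984 control nuclei and 41 of the cKO-labelled library, and cluster 5 held 32 and 663. The class shares also differed, with 512 and 115 GNP-like nuclei and 578 and 1358 GABAergic interneuron-like nuclei. Levels are given as UMIs of the gene per 1000000 UMIs (CPM) of the nuclei summed.

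Over all kept nuclei, Sst was 1.90-fold higher in the cKO-labelled library and Sstr2, its most counted receptor gene, 1.78-fold lower. Sst had 704 control UMIs (34.4 CPM) and 1971 in the cKO-labelled library (65.3 CPM), with an interval of the ratio from 1.74 to 2.08. Sstr2 had 791 and 654 UMIs (38.6 and 21.7 CPM, ratio 0.562, interval 0.506 to 0.624). Penk, the enkephalin precursor, had 43 and 130 UMIs (2.10 and 4.31 CPM, ratio 2.05, interval 1.44 to 2.97). Cck, the cholecystokinin precursor, had 133 and 348 UMIs (6.49 and 11.5 CPM, ratio 1.78, interval 1.45 to 2.19). The 4 remaining genes showed no difference beyond counting error. Npy, neuropeptide Y, had 44 and 64 UMIs (ratio 0.988, interval 0.663 to 1.49), and Sstr1 had 56 and 96 (ratio 1.16, interval 0.829 to 1.65). Sstr3 had 12 and 11 UMIs (ratio 0.623, interval 0.249 to 1.54), and Sstr4 had 1 UMI in each library, under the 3 counts that a count of 0 allows. Without the low-depth clusters, the Sst ratio was 2.11 (interval 1.92 to 2.32).

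**Figure D1:**
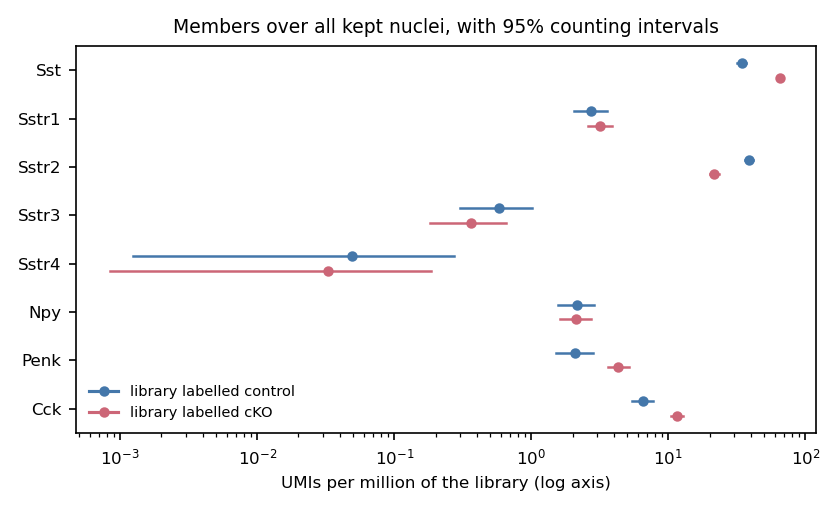
CPM in the whole library (log axis) for the 8 genes in the library labelled control (blue) and the cKO-labelled library (red). Points are summed counts over all kept nuclei and lines are exact 95% Poisson intervals, which cover counting error only. Sst, Penk and Cck lie higher in red and Sstr2 lower, with intervals apart, while those of Sstr1, Sstr3, Sstr4 and Npy overlap.

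Of the 8 genes, 7 had at least 20 UMIs over both libraries, and 3 of them (Sst, Penk and Cck) were at least 1.5-fold higher and 2 (Sstr2 and, with an interval that included 1, Sstr3) at least 1.5-fold lower. Among all 20214 genes with as many UMIs, 7.07% were at least 1.5-fold higher and 7.74% at least 1.5-fold lower. The genes were chosen with this contrast known, so their count adds nothing to it. In a sum over the whole tissue, fewer nuclei of a type and less RNA per nucleus cannot be told apart, and the classes were therefore separated. With the class levels of the cKO-labelled library and the class makeup of control, the Sst ratio was 1.64, and with makeup alone it was 1.16. For Sstr2 the corresponding ratios were 0.80 and 0.747. They were 1.41 and 1.17 for Penk and 1.33 and 1.11 for Cck.

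Sst was highest, among named classes, in GABAergic interneuron-like and glutamatergic cerebellar nuclei (CN)-like nuclei, and in both it was about 2-fold higher in the cKO-labelled library. In GABAergic interneuron-like nuclei it measured 73.1 CPM in control (interval 64.3 to 82.7) and 144 CPM in the cKO-labelled library (interval 135 to 153), a ratio of 1.97 (interval 1.71 to 2.27). In glutamatergic CN-like nuclei it measured 62.5 CPM (interval 47.2 to 81.2) and 121 CPM (interval 108 to 135), a ratio of 1.93 (interval 1.45 to 2.62). There, 5 of 266 nuclei labelled cKO held at least 20 Sst UMIs each, so the ratio may rest on few nuclei. Purkinje cell-like nuclei came next in control and held 34.3 and 33.1 CPM, a ratio of 0.965 (interval 0.756 to 1.24), so that no difference was detectable there at this depth. The intervals of the ratio in Purkinje cell-like and in GABAergic interneuron-like nuclei lay apart, but with nuclei gated one by one on markers in place of clusters they overlapped (1.24, interval 0.871 to 1.79, and 1.52, interval 1.10 to 2.12).

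In the other classes, 0 nuclei with at least 3 UMIs were found in the Bergmann glia-like, GNP-like and oligodendrocyte lineage-like classes of either library and 0 and 2 among granule neuron (GN)-like nuclei. Of microglia-like nuclei, 0 of 53 and 1 of 152 had as many (0.658% of the latter, interval 0.0167 to 3.61). GN-like nuclei had 13.1 and 25.9 CPM (ratio 1.98, interval 1.5 to 2.63). Bergmann glia-like nuclei had 11.2 and 26.5 CPM (ratio 2.38, interval 1.32 to 4.57). In GNP-like and oligodendrocyte lineage-like nuclei the intervals of the ratio included 1. Microglia-like nuclei, which should not make Sst and served as background for free RNA, had 28.9 CPM in control (5 UMIs, interval 9.4 to 67.5) and 34.5 CPM in the cKO-labelled library (15 UMIs, interval 19.3 to 56.9). Sst was found in 9.43% of 53 and 8.55% of 152 microglia-like nuclei, which had medians of 2923 and 2541 UMIs. The share was 6.39% and 9.88% in GN-like nuclei (medians of 4665.5 and 3999.5 UMIs), and 5.0% and 9.70% in Bergmann glia-like nuclei (medians of 4262.5 and 3658 UMIs). Thinned to 1000 UMIs per nucleus, the shares of the cKO-labelled library were 2.66% in GN-like, 2.93% in Bergmann glia-like and 3.19% in microglia-like nuclei. In control they were 1.54%, 1.08% and 2.62%. Those shares did not stand above the background, and the higher CPM of these classes in the cKO-labelled library cannot be read as expression in them. Their ratios (1.98 and 2.38) stand beside 1.97 in GABAergic interneuron-like nuclei, and the part of free RNA in that ratio was not tested. In the low-depth clusters Sst made up 159 CPM in control (110 UMIs) and 191 CPM in the cKO-labelled library (89 UMIs), ratio 1.2 (interval 0.898 to 1.60).

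**Figure D2:**
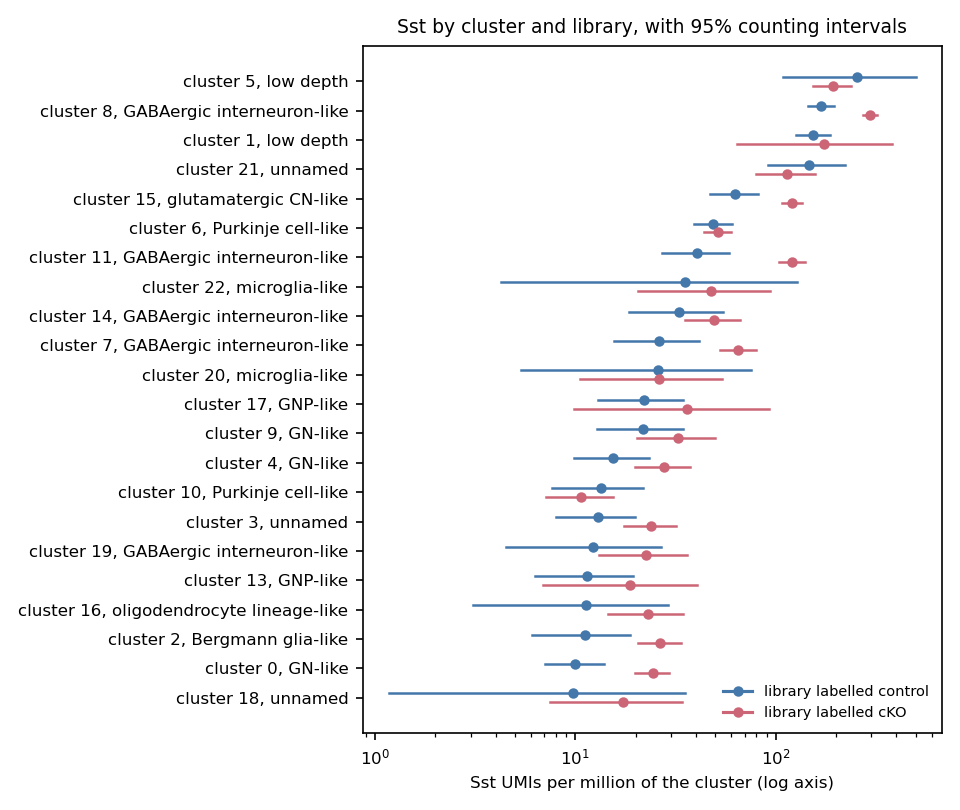
Sst CPM in each cluster (log axis) in the library labelled control (blue) and the cKO-labelled library (red), ordered by the control level, with exact 95% Poisson intervals. A cluster of 22 nuclei and cluster 12 are left out. Clusters 7, 8, 11 and 15, GN-like cluster 0 and Bergmann glia-like cluster 2 lie higher in red with intervals apart. The intervals of Purkinje cell-like cluster 6 and unnamed cluster 21 overlap.

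Within the interneurons, Sst was concentrated in cluster 8. This cluster of 138 control nuclei and 319 of the cKO-labelled library led with Pax2, Nxph1, Tll2, Tfap2b and C1ql3. It held 182 control Sst UMIs (168 CPM, interval 145 to 195) and 631 in the cKO-labelled library (295 CPM, interval 272 to 319), a ratio of 1.75 (interval 1.48 to 2.08). In cluster 11, which led with Htr7 beside Nxph1 and Pax2, Sst measured 40.5 and 121 CPM, a ratio of 2.99 (interval 2.01 to 4.58), with the control level within the interval of microglia-like nuclei. Cluster 7 held 26.3 and 65.0 CPM (ratio 2.47, interval 1.48 to 4.34), while cluster 14 (33.0 and 49.0 CPM) and cluster 19 (12.3 and 22.5 CPM) had intervals of the ratio that included 1. Cluster 19 had the weakest interneuron markers, and the class without it gave a ratio of 1.92 (interval 1.66 to 2.22). In cluster 8 the summed level of all 9 interneuron markers was 2733.0 and 2818.4 CPM (ratio 1.03, interval 0.987 to 1.08), and none was at 0. Markers of GNPs, counted over 10 genes, were lower there in the cKO-labelled library, at 107 and 42.0 CPM, and their part in the Sst difference was not tested.

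Single UMIs can come from free RNA, so nuclei with at least 3 Sst UMIs were counted. There were 51 in control and 167 in the cKO-labelled library, and they held 38.2% and 56.3% of all Sst UMIs. Cluster 8 contained 20 of the 51 and 86 of the 167. As a share of the cluster, 14.5% of control nuclei (interval 9.08 to 21.5) and 27.0% of nuclei labelled cKO (interval 22.2 to 32.2) had at least 3 UMIs, although the median depth was 7136 UMIs in control and 6451 in the cKO-labelled library. After thinning to 1000 UMIs per nucleus, the share of cluster 8 with any Sst UMI was 14% and 21.6%, beside 50% and 57.4% without thinning. Thinned microglia-like nuclei gave 2.62% and 3.19%. In cluster 11 the nuclei with at least 3 UMIs numbered 3 of 122 and 19 of 305 (2.46%, interval 0.510 to 7.02, and 6.23%, interval 3.79 to 9.56).

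Glutamatergic CN-like nuclei, the projection neurons of the cerebellar output, followed another pattern. The share with at least 3 Sst UMIs was 9.21% in control (7 of 76, interval 3.78 to 18.1) and 7.89% in the cKO-labelled library (21 of 266, interval 4.95 to 11.8). At the highest numbers, 5 of 266 nuclei labelled cKO held at least 20 UMIs, and the highest held 63. None of the 76 control nuclei held as many, and the highest there held 16. At 20 UMIs, 0 of 76 allows a share of up to 3.95%, that of 3 nuclei. The 1.88% of the cKO-labelled library lies within this limit, so no difference was detectable at this number. Without the nucleus with most UMIs in each library the ratio was 2.13 (interval 1.52 to 3.06). That leaves out only the top nucleus, while 5 nuclei labelled cKO held at least 20 UMIs and 2 of them at least 30. The ratio without all 5 was not computed, so the difference in CN-like nuclei may rest on few nuclei. The 5 defining CN markers summed to 1382.9 and 1203.8 CPM, with none at 0, and 3 of them passed the naming rule, the fewest it allows. The highest single marker gave 1107.2 and 888 CPM of these sums, and the lowest stood at 8.93 and 5.36 CPM. Purkinje cell markers (10 genes) summed to 1535.8 and 1566.2 CPM in this cluster, beside 17140.9 and 13755.1 CPM in Purkinje cell-like cluster 6. Markers of midbrain neurons (7 genes) were at 32.4 and 14.2 CPM in this cluster and those of hindbrain neurons (7 genes, 4 and 5 at 0) at 6.70 and 1.53 CPM. Of the nuclei with at least 3 Sst UMIs, 2 of 7 in control and 0 of 21 in the cKO-labelled library had a hindbrain marker UMI.

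Purkinje cell-like nuclei, the sole output of the cerebellar cortex, split into cluster 6 and the Ebf2-led cluster 10. Sst lay in cluster 6, with 48.7 and 51.5 CPM (ratio 1.06, interval 0.810 to 1.39), within the intervals of microglia-like nuclei. Microglia-like nuclei were shallower, with medians of 2923 and 2541 UMIs, beside 9120.5 and 7838 in cluster 6. Any Sst UMI was found in 21.8% and 18.1% of cluster 6, beside 9.43% and 8.55% of microglia-like nuclei. After thinning to equal depth these shares were 4.42% and 4.34%, beside 2.62% and 3.19%. Whether Sst of cluster 6 stood above free RNA was not tested. Of cluster 6 nuclei, 11 of 174 and 19 of 398 held at least 3 UMIs (6.32%, interval 3.20 to 11, and 4.77%, interval 2.90 to 7.35). Among microglia-like nuclei, 0 of 53 and 1 of 152 did. Cluster 10 held 13.4 CPM in control, within the interval of microglia-like nuclei, and 10.7 CPM in the cKO-labelled library, below their interval. The unnamed cluster 21, with Meis2, Tfap2d, Lhx9 and Zfhx3 among its leading genes, held 147 CPM of Sst in control (22 UMIs) and 114 in the cKO-labelled library (37 UMIs), ratio 0.774 (interval 0.445 to 1.38). Cluster 21 scored higher on the CN marker list than cluster 15, with 4 markers past the rule against 3. The CN markers summed there to 2429.7 and 1578.1 CPM. Markers of midbrain neurons summed to 688 and 522 CPM in cluster 21, beside 32.4 and 14.2 CPM in cluster 15. A midbrain marker UMI was found in 26 of 33 and 47 of 83 nuclei of cluster 21 (78.8% and 56.6%). Cluster 21 stayed unnamed because a marker of another class was among its leading genes.

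**Figure D3:**
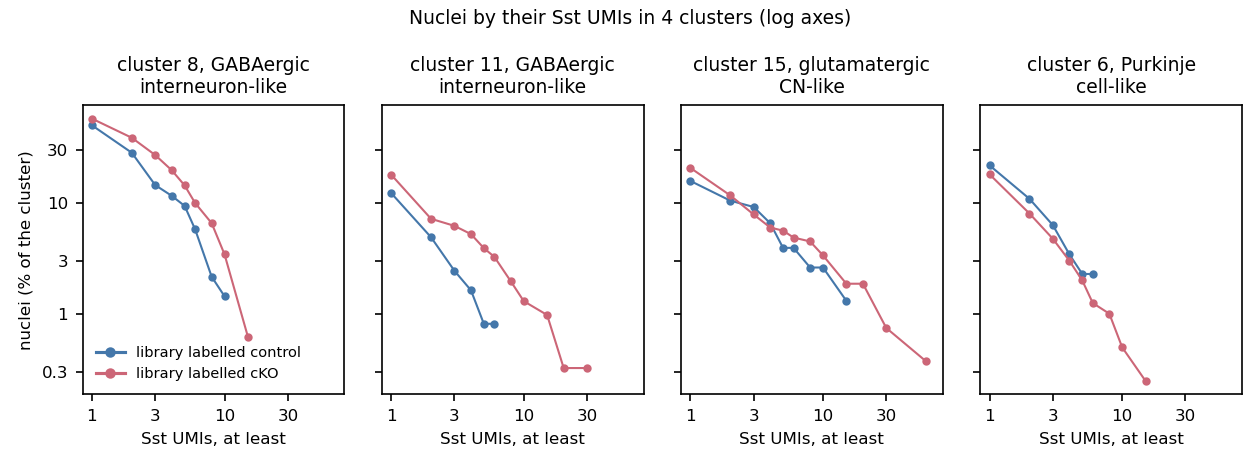
Share of nuclei (%, log axis) with at least the number of Sst UMIs on the x axis (log axis) in 4 clusters, for the library labelled control (blue) and the cKO-labelled library (red). In cluster 8 the red curve is above the blue one at every number drawn (14.5% and 27.0% at 3 UMIs), in CN-like cluster 15 the curves cross and only the red one passes 20 UMIs, and in Purkinje cell-like cluster 6 they lie together up to 5 UMIs.

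Sstr2, the receptor of the granule lineage, was the most counted somatostatin receptor gene. It is a gene of the plus strand of chromosome 11 (ENSMUSG00000047904, 113619342 to 113626028), and Slc39a11 overlaps it on the other strand. The sources used here do not state whether counting used the strand, so reads of the pair may be mixed. Slc39a11 had 116 and 88.1 CPM (ratio 0.758, interval 0.717 to 0.801). Sstr2 measured 63.1 and 50.7 CPM in GN-like nuclei (ratio 0.803, interval 0.690 to 0.935) and 57.3 and 78.8 CPM in GNP-like nuclei (ratio 1.38, interval 0.910 to 2.03). In control, the intervals of GN-like and GNP-like nuclei overlapped. Purkinje cell-like nuclei held 16 and 13.1 CPM, glutamatergic CN-like nuclei 12.3 and 12.2 CPM, GABAergic interneuron-like nuclei 10.5 and 9.19 CPM and Bergmann glia-like nuclei 7.17 and 8.18 CPM. Microglia-like nuclei had 2 and 0 UMIs of Sstr2, so their level in control was 11.6 CPM (interval 1.40 to 41.8). The background count of 0 in the cKO-labelled library allows up to 6.89 CPM (3 UMIs), and its exact interval reaches 8.48 CPM. The levels of Purkinje cell-like, glutamatergic CN-like, GABAergic interneuron-like and Bergmann glia-like nuclei lay within the background interval in control. In the cKO-labelled library the Bergmann glia-like level lay below 8.48 CPM and the others above it. Of these classes, only Purkinje cell-like nuclei had an interval wholly above it there (10.4 to 16.4).

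Within the granule lineage, Sstr2 differed more between clusters than between libraries. It was highest in GN-like clusters 9 (144 and 160 CPM, ratio 1.11, interval 0.846 to 1.46) and 4 (113 and 104 CPM, ratio 0.920, interval 0.734 to 1.15), which held 32.1% and 34.8%, and 35.5% and 29.4%, of nuclei with a UMI. GN-like cluster 0 was lower, with 24.0 and 15.6 CPM (ratio 0.649, interval 0.464 to 0.905). The dividing GNP-like cluster 13 held 45.1 and 81.0 CPM (ratio 1.80, interval 1.08 to 2.92) and the GNP-like cluster 17 held 75.4 and 72.4 CPM (ratio 0.960, interval 0.397 to 2.01). Of the 3 GN-like clusters, the interval of the ratio lay below 1 in cluster 0 and included 1 in the other two. The unnamed cluster 3, which carried granule markers and had Otx2 among its 10 leading genes, held 43.3 and 15.9 CPM (ratio 0.366, interval 0.231 to 0.569). Over GN-like and GNP-like nuclei together the ratio was 0.852 (interval 0.741 to 0.978), and with cluster 3 it was 0.761 (interval 0.667 to 0.868). Midbrain markers, among which is Otx2, summed over the whole library to 52.3 and 32.9 CPM (ratio 0.630, interval 0.577 to 0.687), and their part in the Sstr2 difference was not tested. Without removal of doublets, the GN-like ratio was 0.940 (interval 0.796 to 1.11).

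**Figure D4:**
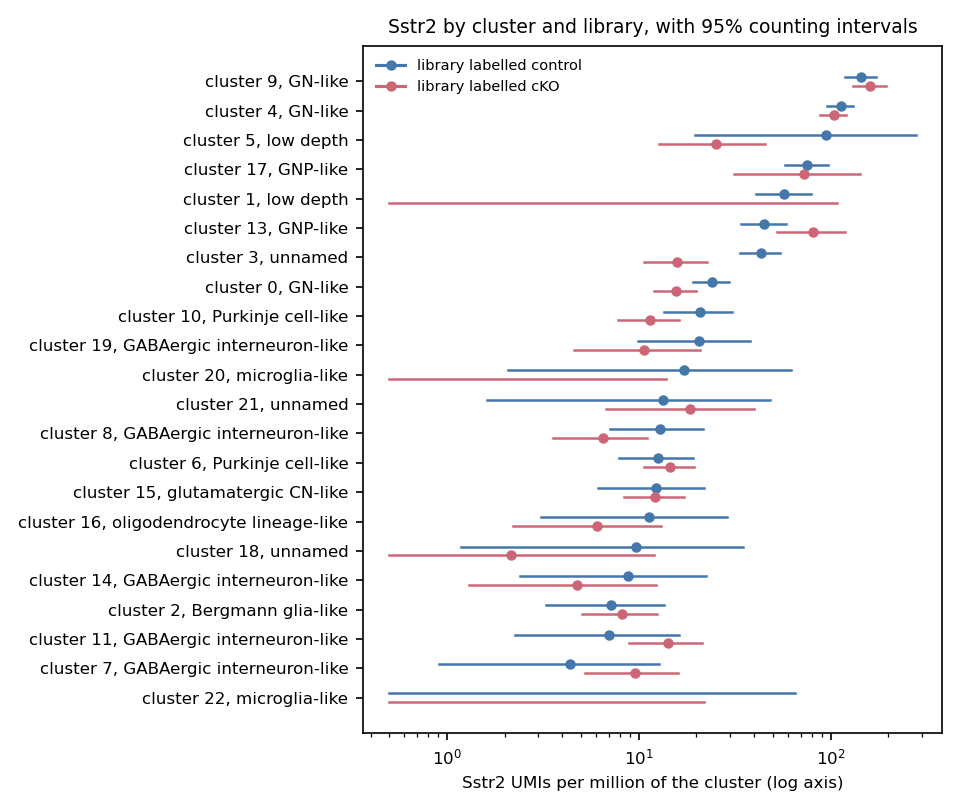
Sstr2 CPM in each cluster (log axis) in the library labelled control (blue) and the cKO-labelled library (red), ordered by the control level, with exact 95% Poisson intervals cut off at the left edge. A line without a point is a cluster with 0 UMIs, and a cluster of 22 nuclei and cluster 12 are left out. Granule clusters 9 and 4 lie highest of those drawn in both libraries, and clusters 3 and 0 are lower in red.

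The other receptor genes were sparse. Sstr1 (chromosome 12, 58211772 to 58214444, plus strand) was found in interneuron-like cluster 8 at 16.6 and 12.1 CPM (18 and 26 UMIs, ratio 0.730, interval 0.385 to 1.41), the cluster with 631 of the 1971 Sst UMIs of the cKO-labelled library. It was found in oligodendrocyte lineage-like nuclei at 8.50 and 15.1 CPM (3 and 15 UMIs) and had 0 UMIs in Bergmann glia-like and microglia-like nuclei of both libraries. In cluster 8, 9 of 69 control nuclei with Sst and 14 of 183 labelled cKO also had an Sstr1 UMI (13.0% and 7.65%), beside 8.70% and 8.09% of nuclei without Sst, and nuclei with Sst were deeper (median 7570 against 6792 UMIs in control). Sstr3 (chromosome 15, 78537008 to 78544685, minus strand) had 8 and 1 UMIs in GNP-like nuclei and 2 and 5 in glutamatergic CN-like nuclei. Sstr4 (chromosome 2, 148395344 to 148396767, plus strand) had 1 UMI in each library.

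Penk, the enkephalin precursor, had 71 of its 130 UMIs in the cKO-labelled library in glutamatergic CN-like nuclei, but in control 9 of 43 there and 13 in GABAergic interneuron-like nuclei. It lies on chromosome 4 (4133531 to 4138819, minus strand), with A830012C17Rik overlapping on the other strand (2.15 and 2.55 CPM). Its level in CN-like nuclei was 10.0 CPM in control (interval 4.59 to 19.1) and 27.2 CPM in the cKO-labelled library (interval 21.2 to 34.3), a ratio of 2.70 (interval 1.35 to 6.16). All nuclei with at least 3 Penk UMIs, 1 in control and 8 in the cKO-labelled library, were in this cluster, and the highest held 12. In GABAergic interneuron-like nuclei Penk measured 3.80 and 4.59 CPM (ratio 1.21, interval 0.615 to 2.52), and in their cluster 19 it measured 12.3 and 13.2 CPM. Of the 55 CN-like nuclei labelled cKO with Sst, 8 also had Penk (14.5%), beside 9.0% of those without Sst.

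Cck, the cholecystokinin precursor on the minus strand of chromosome 9 (121489824 to 121495694), was mainly a transcript of Purkinje cell-like nuclei. It measured 24.1 and 33.5 CPM there (71 and 201 UMIs, ratio 1.39, interval 1.05 to 1.84). In the cKO-labelled library the small unnamed cluster 21 lay close to this level, and the nucleus with most Cck UMIs (8) was there. Cck and Sst had opposite places in the 2 Purkinje clusters. The Ebf2-led cluster 10 held 37.6 and 62.8 CPM of Cck (ratio 1.67, interval 1.2 to 2.38) and cluster 6 held 14.9 and 9.39 CPM (ratio 0.630, interval 0.362 to 1.11). In cluster 6 1 control nucleus held 17 of the 26 UMIs. Without the nucleus with most UMIs in each library, the ratio over all Purkinje cell-like nuclei was 1.77 (interval 1.30 to 2.43). In glutamatergic CN-like nuclei Cck had 2 and 32 UMIs (2.23 and 12.2 CPM, ratio 5.49, interval 1.40 to 47.2). The low-depth clusters held 30.3 and 49.3 CPM.

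Npy, on the plus strand of chromosome 6 (49822710 to 49829507), was rare in the named neuronal classes and did not differ between the libraries beyond counting error. Bergmann glia-like nuclei held 11 and 21 UMIs (8.76 and 8.18 CPM, ratio 0.934, interval 0.430 to 2.14). The unnamed cluster 21 held 4 and 21 UMIs (26.7 and 64.5 CPM, ratio 2.41, interval 0.815 to 9.68), and all 4 nuclei with at least 3 Npy UMIs, 1 in control and 3 in the cKO-labelled library, were there.

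**Figure D5:**
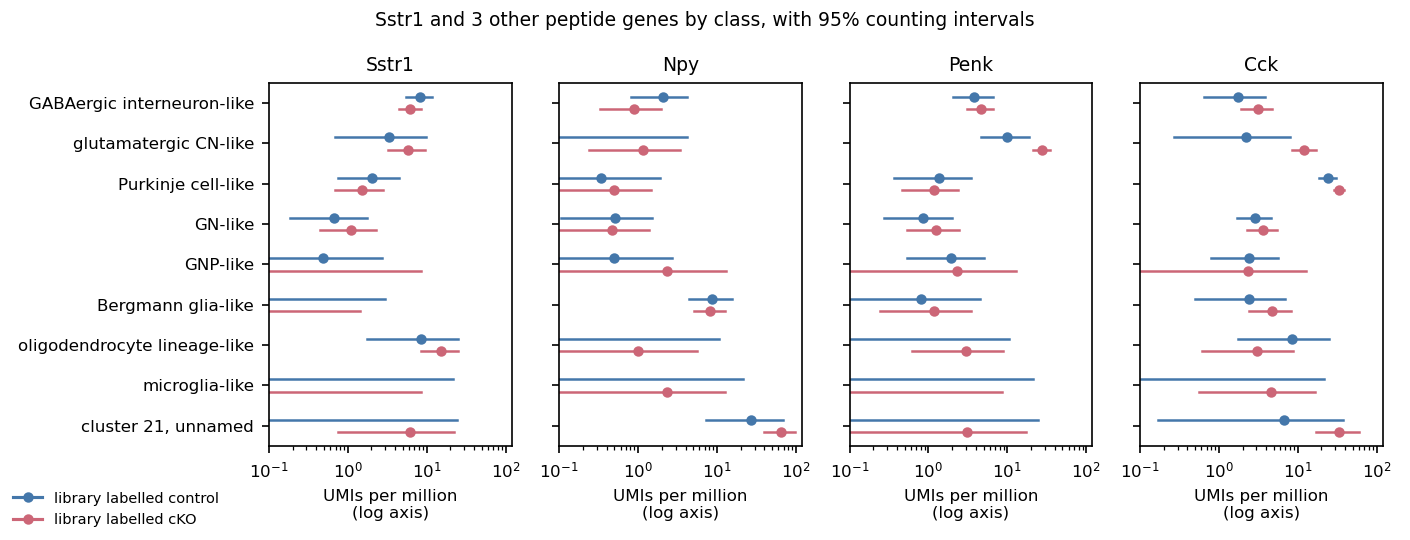
CPM in each class (log axis) for Sstr1, Npy, Penk and Cck in 8 named classes and unnamed cluster 21, for the library labelled control (blue) and the cKO-labelled library (red), with exact 95% Poisson intervals cut off at the left edge. A line without a point is a count of 0. Penk stands highest in CN-like nuclei (10.0 and 27.2), Cck in Purkinje cell-like nuclei of control (24.1) and Npy in cluster 21 (26.7 and 64.5). For Cck in red, cluster 21 lies close to Purkinje cell-like nuclei (33.5).

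The wider peptide pathway, a list of 78 genes, was read beside these genes. Over the whole library 63 of them had at least 20 UMIs, 12 were at least 1.5-fold higher in the cKO-labelled library (19%) and 8 at least 1.5-fold lower (12.7%), beside the 7.07% and 7.74% of all genes given above, and the median log2 ratio was 0.06, against -0.02 over all genes. These counts go by the ratio alone, whether or not its interval included 1. The 63 include 7 of the 8 genes chosen with this contrast known, which gave 3 of the 12 and 2 of the 8. The shares of the list are therefore not independent of that choice. Among other precursors, 5 of 15 were higher (Penk, Cck, Pdyn, Tac1 and Calca) and 2 lower (Tac2 and Cartpt). Tac1, the substance P precursor, had the largest ratio among list genes with at least 50 UMIs, with 22 and 246 UMIs (1.07 and 8.15 CPM, ratio 7.60, interval 4.90 to 12.3). Cartpt, the precursor of the peptide CART, had 267 and 178 UMIs (ratio 0.453, interval 0.372 to 0.549) and Tac2, the neurokinin B precursor, 68 and 47 (ratio 0.470, interval 0.317 to 0.691). Among receptors of other peptides, 5 of 21 were higher and 2 lower. Cckbr, a cholecystokinin receptor, had a ratio of 2.12 (interval 1.54 to 2.96), and 58 of its 159 UMIs in the cKO-labelled library were in Bergmann glia-like nuclei (7.17 and 22.6 CPM there). The receptor of vasoactive intestinal peptide, Vipr1, had a ratio of 0.402 (interval 0.297 to 0.540) and Npy2r, a receptor of neuropeptide Y, 0.542 (interval 0.383 to 0.764). Of the 125 control UMIs of Vipr1, 54 were in GNP-like nuclei, where its ratio was 1.67 (26.4 and 44.1 CPM, interval 0.932 to 2.86). In GN-like nuclei, with 46 and 34 UMIs, it was 0.684 (interval 0.426 to 1.09).

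Genes of the machinery that makes and stores the peptides were counted apart. None of the 7 processing genes was past 1.5-fold, and the convertase gene Pcsk2 measured 283 and 230 CPM. Of 9 granin and vesicle genes, Scg2 was higher (36.6 and 56.8 CPM, ratio 1.55) and Cadps2, which primes dense core vesicles and is abundant in granule cells, was lower (1280.4 and 681 CPM, ratio 0.532, interval 0.522 to 0.541). Of 7 genes of receptor coupling, only the potassium channel gene Kcnj6 was past 1.5-fold (511 and 320 CPM, ratio 0.626). Cort, the relative of Sst, had 7 and 5 UMIs and Sstr5 had 1 and 0.

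By class, 15 of 43 list genes with at least 20 UMIs in glutamatergic CN-like nuclei were at least 1.5-fold higher and 2 lower (34.9% and 4.65%), beside 10.4% and 9.04% of all genes, with a median log2 ratio of 0.28 against -0.00 over all genes. The 15 included Sst, Penk, Cck, Tac1 (10.0 and 66.6 CPM, ratio 6.63, interval 3.41 to 14.7), the PACAP precursor Adcyap1 (15.6 and 40.6 CPM, ratio 2.60, interval 1.48 to 4.91), Oprk1, a receptor of dynorphins (3.35 and 19.1 CPM, ratio 5.71, interval 1.85 to 28.6), and Scg2 (73.7 and 218 CPM, ratio 2.96, interval 2.29 to 3.88). Of the 43 genes, 4 were among the 8 chosen with the contrast known, and they gave 3 of the 15. The control class was 76 nuclei, and its higher midbrain and hindbrain marker sums, given with Sst above, apply to this list too. Their part was not tested. In GABAergic interneuron-like nuclei 3 of 45 were higher and 4 lower, beside 4.94% and 5.54% of all genes, in Purkinje cell-like nuclei 1 and 5 of 43, beside 4.91% and 7.65%, and in GN-like nuclei 1 and 1 of 41, beside 5.10% and 7.22%. In GNP-like nuclei 9 of 29 were higher and 6 lower, beside 11.2% and 21.5%, and in Bergmann glia-like nuclei 7 and 3 of 27, beside 8.89% and 6.99%. In oligodendrocyte lineage-like nuclei 1 and 6 of 23 were past it, beside 14.4% and 11.5%, and in microglia-like nuclei 1 and 5 of 14, beside 14.6% and 11.9%. In GN-like nuclei the gene past the limit on the higher side was Sst, at the background level given above.

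The genes most like each of the better counted ones were sought by the correlation of log2(CPM + 5) over the 18 sums of 9 classes and 2 libraries, among 13640 genes, where the 2 points of a class share its markers and the points of a library its depth. Cacng3 was nearest to Sst (r = 0.890), Vstm2b to Sstr1 (0.902), Mex3b to Sstr2 (0.914), Sox1 to Npy (0.935), D130079A08Rik to Penk (0.928) and Plekhd1 to Cck (0.879). Next to these came A230006K03Rik (0.841) and Slc2a3 (0.839) for Sst, Vwc2 (0.892) and Gm28307 (0.886) for Sstr1, and Gm10475 (0.899) and Uncx (0.896) for Sstr2. For Npy they were Gm47520 (0.923) and Pdlim3 (0.916), for Penk Gm44644 (0.907) and Gm34006 (0.896), and for Cck Slc17a8 (0.860) and D430036J16Rik (0.857).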

How the data were processed

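Single-nucleus 3′ RNA libraries were deposited as raw UMI counts per gene and nucleus, without normalisation. Per the labels and the methods of the study, the authors aligned and counted them with Cell Ranger 7.0.1 on the mm10 build. Whether intronic reads and strand were used is not given in the sources used here, and the authors' correction for free RNA was not applied here. The members and lists were chosen with earlier results of these data known.

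Nuclei over 25% mitochondrial UMIs (1 and 5) and the top 0.8% of doublet scores per 1000 barcodes (189 and 386 nuclei, Scrublet in scanpy 1.11.5) were removed. The automatic threshold marked 1 and 350 and was not used. Libraries were integrated and clustered in Seurat 5.3.0 (R 4.3.3; 3000 variable features less the 78 list genes and Tox3, 30 and 20 dimensions, resolution 0.8). A cluster was named where 3 or more markers of a list were found in 10% of its nuclei at 2-fold the median of the other clusters, unless another list led among its 10 leading genes or its depth was low. This scoring rule was set and adjusted after the clusters were seen. Cluster 12, a named class of its own, is not reported here. With 1 library per group, no test was made. Sums have Poisson, shares Clopper-Pearson and ratios conditional binomial 95% intervals. Of these, only the ratio intervals were tried on simulated data. Those data were Poisson counts per gene, without the gathering of UMIs in few nuclei that Sst showed. Depth was 22325208 and 33726533 UMIs in 4857 and 6946 barcodes, and the share of kept nuclei under 1000 genes was 22.1% and 10.9%. Thinned shares are means over all thinnings to 1000 UMIs. Named were all 8 members, Tox3, the 3 genes nearest to each member with at least 100 UMIs, and the 10 list genes of largest ratio with at least 50 UMIs. The class and list genes named beyond these were chosen after their values were seen. Python 3.11.15, scipy 1.17.1 and matplotlib 3.10.9 were used.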

Additional observations from a re-analysis of the deposited data

Results flagged for a closer look

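Sst reached 159 (control) and 191 (cKO-labelled) CPM in the low-depth clusters, which entered no class. These values were above those of every named class (at most 73.1 and 144 CPM), but below those of interneuron-like cluster 8 (168 and 295 CPM). They rest on 110 and 89 UMIs in nuclei with medians of only 620 and 576 UMIs. Sst was found in 9.55% and 12.1% of these nuclei, beside 9.43% and 8.55% of microglia-like and 19.7% and 25.3% of GABAergic interneuron-like nuclei. At least 3 Sst UMIs were held by 2 of 1016 and 0 of 704. No gene's difference between the libraries was found to differ between classes by a test, since the design allows none.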

How the results depend on the processing

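Each ratio was recomputed under the alternatives: 153 values for 24 results, of which 140 stayed within the counting interval or within 1.5 times the count reported, 13 moved beyond it. None of the ratios whose interval excluded 1 changed direction. Of those whose interval included 1, Sstr1 in interneuron-like nuclei (0.760) crossed 1 with gates, Sst in Purkinje cell-like nuclei (0.965) under 4 alternatives (1.01 to 1.24) and Npy over the whole library (0.988) under 4 (1.01 to 1.34). Over the whole library, the Sst ratio was 2.12 without nuclei under 1000 genes, 2.10 after thinning and 2.11 without the low-depth clusters (an alternative chosen after seeing the data), and Penk was 1.37 after thinning. With per-nucleus gates on marker sums in place of clusters, Sst was 1.52 in interneuron-like and 1.24 in Purkinje cell-like nuclei, with intervals that overlapped, and 6.65 in GN-like nuclei (2 and 17 UMIs), Sstr2 was 0.244 in GN-like nuclei (16 and 5 UMIs), Cck was 2.24 in Purkinje cell-like and Sstr1 1.69 in interneuron-like nuclei (2 and 8 UMIs). Without doublet removal Sstr2 was 0.940 in GN-like nuclei. At 2-fold, 4 list genes were higher and 3 lower, against 12 and 8 at 1.5-fold. The cause of these shifts was not tested. No paired analysis was possible because each group was 1 library and no test was made. The limits are the single pooled library per genotype, free RNA, which was not corrected, and the low counts of Sstr1, Sstr3, Sstr4, Npy and Penk, for which differences up to the bounds of their intervals were not detectable.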
